A study of Mus musculus with 6 samples.

Results

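The interneuron lineage genes described here are Dlx1, Dlx2, Dlx5, Dlx6, Sp9, Lhx6, Gad1, Gad2 and Nrxn3, 9 genes chosen by symbol and found under 1 Ensembl ID each among the 55538 genes of the table. They were measured in primary cortical neurons of C57BL/6 mice, taken at embryonic day 14.5, which rested for 2 h at 37 °C before the experiment. The control cells then stayed at 37 °C for 60 min, and the heated cells were moved to 42 °C for 15 min or for 60 min. Each of the 3 groups had 2 total RNA libraries, called s1 and s2 here after the column names. Nothing in the labels says that these came from separate cultures or litters, so p-values measure only the spread between libraries. No control of 15 min is described. A difference of the 15 min group from the control or from the 60 min group therefore cannot be told apart from time in culture. Which cells remain in such a culture, and whether the ganglionic eminences were trimmed away, is not given in the sources used here.

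Cortical interneurons, the inhibitory neurons that release GABA, are born in the ganglionic eminences of the ventral telencephalon and reach the cortex by tangential migration, while the excitatory projection neurons are born in the cortex itself. The homeodomain factors of the DLX family act in ventral progenitors and migrating interneurons, where DLX1 and DLX2 lie upstream of Dlx5, Dlx6 and the genes for GABA synthesis. Sp9 encodes a zinc finger factor of the same cells, and Lhx6 a LIM homeodomain factor that acts downstream of NKX2-1 in interneurons of the medial eminence. Gad1 and Gad2 encode the enzymes that make GABA from glutamate. Nrxn3 encodes a presynaptic adhesion molecule, a neurexin, which neurons of other types use as well.

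In the GENCODE annotation of GRCm38, which is not the submitters' build, 6 of the 9 are on chromosome 2 (Dlx1, Dlx2, Sp9, Lhx6, Gad1 and Gad2), 2 on chromosome 6 (Dlx5 and Dlx6) and 1 on chromosome 12 (Nrxn3). Dlx1 and Dlx2 point towards each other across 9.43 kb, and Dlx6 and Dlx5 across 9.24 kb. Nrxn3 spans 1612 kb and Dlx2 3.35 kb.

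The upstream sequences show what the genes that were compared under heat have at their starts, beside a heat-inducible gene. RefSeq windows of 300 bases (GRCm38.p6, 250 before to 50 after a gene start) were found for 7 of the 9 genes, 11 windows in all, with none for Dlx5 or Dlx6. They were searched on both strands for GAANNTTC and TTCNNGAA, the paired core repeats of a heat shock element, and for CCAAT and its reverse complement ATTGG, the site of the factor NF-Y. A heat shock pair was found in 0 of the 11 windows and in 15.1% of all 32851 windows. A CCAAT box was found in 5 of the 11 (45.5%) and in 37.4% of all windows. The first 250 bases are given for Dlx2 (chr2:71546755-71547004, minus strand), whose signal was lower in both heated groups than in both controls, for Sp9 (chr2:73271676-73271925, plus strand), the member with the lowest level, and for Hspa1a (chr17:34972157-34972406, minus strand), the Hsp70 gene with a large response here. Capitals mark matches to either motif.
Dlx2: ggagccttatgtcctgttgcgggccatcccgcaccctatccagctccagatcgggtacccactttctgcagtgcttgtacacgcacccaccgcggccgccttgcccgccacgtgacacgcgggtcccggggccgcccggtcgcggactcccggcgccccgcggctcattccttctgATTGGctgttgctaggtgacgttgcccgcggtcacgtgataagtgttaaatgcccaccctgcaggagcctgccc
Sp9: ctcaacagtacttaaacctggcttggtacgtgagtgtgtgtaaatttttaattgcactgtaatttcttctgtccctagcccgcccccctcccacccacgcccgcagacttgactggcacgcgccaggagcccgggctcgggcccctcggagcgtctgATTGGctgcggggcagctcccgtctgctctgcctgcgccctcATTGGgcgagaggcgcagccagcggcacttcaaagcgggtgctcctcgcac
Hspa1a: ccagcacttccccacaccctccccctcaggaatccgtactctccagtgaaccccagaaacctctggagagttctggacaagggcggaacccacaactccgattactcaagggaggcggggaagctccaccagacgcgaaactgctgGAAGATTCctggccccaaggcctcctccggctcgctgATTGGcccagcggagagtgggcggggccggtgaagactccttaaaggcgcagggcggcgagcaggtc
Hspa1a holds 1 heat shock pair at position −104 from its start and a CCAAT box at −67. Dlx2 holds a CCAAT box at −74, and Sp9 holds 2, at −93 and −51. A match is a run of letters and not a bound site, and its absence says only that these letters are not in this window.

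All 9 genes were detected in every library, at low to middle levels. The values are the authors' normalised signal, TPM-like and hence per transcript length, so levels of different genes can be set side by side. The depth of each library is unknown. Dlx1 had the highest mean signal over the 6 libraries, 11.7 ± 4.25 (SD), above 59.8% of the 21954 genes with a mean signal of 1 or more. Gad1 followed with 7.82 ± 3.55 and Dlx5 with 6.75 ± 2.17. Nrxn3 had 4.71 ± 1.63 and Lhx6 3.62 ± 0.997. Dlx2 (3.34 ± 0.588), Dlx6 (3.34 ± 0.954) and Gad2 (3.32 ± 1.03) were level with each other, and Sp9 was lowest at 1.48 ± 0.231, above 15.8% of those genes. Dlx1 was above Gad1, and Gad2 above Sp9, in all 6 libraries. The neighbours between them in this order were not separated by their spread: Gad1 was above Dlx5 in 3 of the 6 libraries, Dlx5 above Nrxn3 in 4, Nrxn3 above Lhx6 in 5, Lhx6 above Dlx2 in 4, Dlx2 above Dlx6 in 3 and Dlx6 above Gad2 in 4.

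The label of an interneuron lineage was checked against other genes of these cells and against projection neuron genes. Sst, the somatostatin gene of a major interneuron class, ran from 13.7 to 26.1 over the libraries. Slc32a1, the transporter that loads GABA into vesicles, ran from 0.815 to 2.98. The regional factors of the ventral progenitors were near the bottom of the scale: Nkx2-1 ran from 0.492 to 1.47, Lhx8 from 0.329 to 2.17 and Gsx2 from 0.302 to 0.880, and none of these 3 reached the mean of 1 that a test required. Of the 7 regional factors below that mean, 5 were highest in control s1, the library in which 59.8% of all genes below the filter were highest.

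Projection neuron genes were far more abundant. Tbr1, a T-box factor of deep-layer projection neurons, ran from 169.6 to 278.9, and Neurod6, a bHLH factor of postmitotic excitatory neurons, from 127.7 to 288.6. The vesicular glutamate transporters Slc17a6 and Slc17a7 together had 77.8 and 117 in the controls, 100.02 and 122 at 15 min and 74.7 and 99.04 at 60 min. Gad1 and Gad2 together had 7.40 and 17.4 in the controls, 7.80 and 14.3 at 15 min and 6.68 and 13.3 at 60 min. The transporter sum was therefore 6.70 to 12.8 times the Gad sum within a library, and this ratio overlapped between all 3 groups (10.5 and 6.70, 12.8 and 8.49, and 11.2 and 7.46 in the same order). In bulk RNA, fewer cells of a type and less RNA per cell cannot be told apart.

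**Figure D1:**
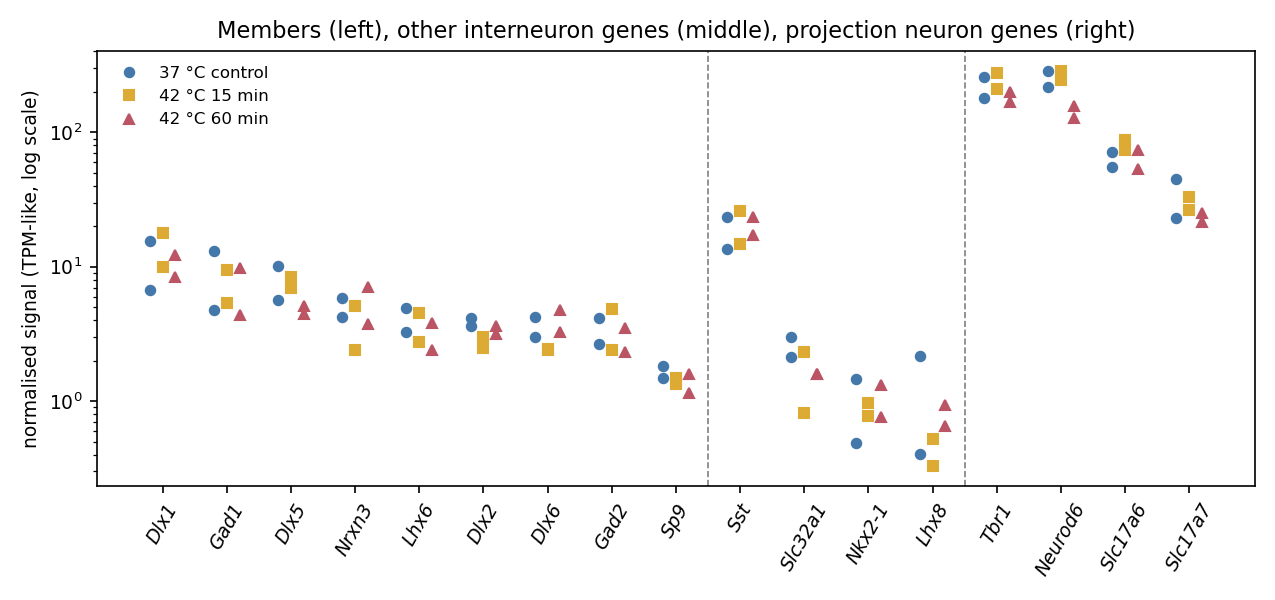
Normalised signal (TPM-like, log scale) of the 9 interneuron lineage genes, of 4 other interneuron genes and of 4 projection neuron genes, with 1 point per library and the groups as colours and shapes (control, 15 min and 60 min at 42 °C). The 9 genes lie between 1.15 and 17.8, below all points of Tbr1, Neurod6, Slc17a6 and Slc17a7.

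Heat gave no call for any of the 9 genes. With limma's test across 21954 genes and Benjamini-Hochberg adjustment, 0 of 9 passed an adjusted p of 0.05 at 60 min against control, where 0.041% of all genes tested passed. The count was 0 of 9 at 15 min against control, where 0% of all genes passed (868 of them, 3.95%, had an unadjusted p under 0.05), and 0 of 9 at 60 min against 15 min, where 0.0182% passed. At an unadjusted p of 0.05 the count was also 0 of 9 in each of the 3 comparisons, where 8.34%, 3.95% and 6.19% of all genes passed in the same order. Fold changes on the log2(signal + 1) scale ran from −0.58 (Dlx5) to 0.11 (Dlx6) at 60 min against control, from −0.42 (Dlx6) to 0.35 (Dlx1) at 15 min against control, and from −0.59 (Dlx5) to 0.53 (Dlx6) between the heated groups. The 95% confidence intervals were wide. At 60 min against control, 5 of the 9 reached below −1 and 3 above 1, so a 2-fold change of signal plus 1 was often within them. At these low signals a 2-fold change of the signal itself is a smaller step on this scale. These counts can therefore understate how many intervals hold such a change. Hspa1a had 794 and 713 at 60 min, against 2.59 and 1.53 in the controls.

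**Figure D2:**
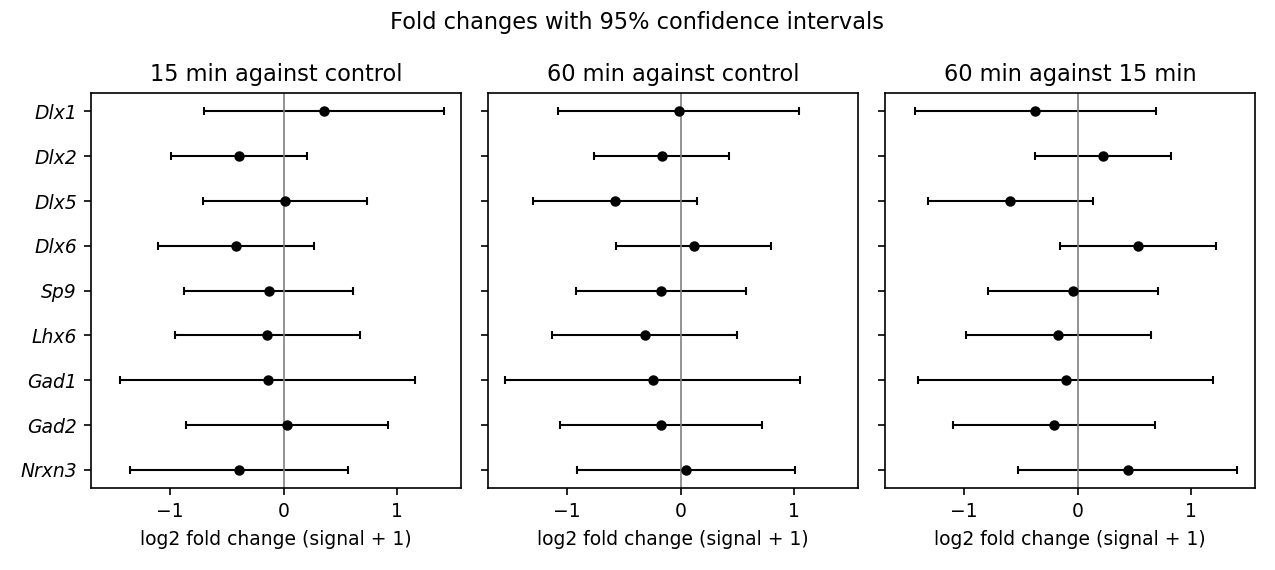
Log2 fold change of the normalised signal plus 1 for each of the 9 genes, with 95% confidence intervals from limma (6 libraries, 2 per group), in 3 panels for 15 min against control, 60 min against control and 60 min against 15 min. Every interval includes 0, and the widest belong to Gad1.

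Among the DLX factors, Dlx1 was the most abundant and the most variable between libraries of a group. It had 6.71 and 15.4 in the controls, 9.99 and 17.8 at 15 min and 8.33 and 12.2 at 60 min. In each group the s2 library was the higher one, and the 3 groups overlapped. The log2 fold change was 0.35 ± 0.44 (SE) at 15 min and −0.02 ± 0.44 at 60 min, both against control.

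Dlx2, the neighbour and partner of Dlx1, had a narrower spread. It had 3.65 and 4.17 in the controls, 2.48 and 3.004 at 15 min and 3.14 and 3.60 at 60 min. Both values at each heated time were below both controls, and both values at 60 min were above both at 15 min. By limma the differences did not pass: −0.39 ± 0.25 at 15 min against control (adjusted p = 0.747) and −0.17 ± 0.25 at 60 min against control (adjusted p = 0.906).

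Dlx5 had the largest fold change of the 9 genes at 60 min. It had 10.1 and 5.61 in the controls, 8.36 and 6.96 at 15 min and 5.06 and 4.41 at 60 min. Both 60 min libraries were the lowest of the 6, and the 15 min values lay between the controls. The log2 fold change was −0.58 ± 0.30 at 60 min against control (95% interval −1.30 to 0.14, unadjusted p = 0.099, adjusted p = 0.705) and −0.59 ± 0.30 at 60 min against 15 min (adjusted p = 0.880). The value against control rests in part on control s1, in which Dlx5 was highest: without that library it was −0.21, and without control s2 −0.95 (adjusted p = 0.114).

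The values of Dlx6, which faces Dlx5, fell in another order, and neither gene passed limma's test. Dlx6 had 4.20 and 3.005 in the controls, 2.43 and 2.40 at 15 min and 3.25 and 4.74 at 60 min. The 15 min libraries were the lowest pair, below both controls and both 60 min libraries, and the 60 min and control values overlapped. The log2 fold change was −0.42 ± 0.28 at 15 min against control (adjusted p = 0.747) and 0.53 ± 0.28 at 60 min against 15 min (adjusted p = 0.895).

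The ratio of Dlx5 to Dlx6 within a library does not depend on how libraries were scaled. It was 2.41 and 1.87 in the controls, 3.45 and 2.90 at 15 min and 1.56 and 0.930 at 60 min. The 3 groups did not overlap, with the 15 min libraries highest and the 60 min libraries lowest. This ratio was chosen after its values were seen, and an exact permutation test of 2 against 2 libraries (two-sided) gave p = 0.333 for each pair of groups, the smallest it can give. The ratio of Dlx1 to Dlx2 was 1.84 and 3.70 in the controls, 4.02 and 5.93 at 15 min and 2.65 and 3.40 at 60 min, with the 15 min libraries above the others.

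Over the 9 genes, 2 had both 60 min libraries below both controls (Dlx2 and Dlx5) and 0 had both above, where 19.8% and 12.8% of all genes tested did. At 15 min the counts were 2 below (Dlx2 and Dlx6) and 0 above the controls, against 18.9% and 15.1% of all genes. Between the heated groups 1 was lower at 60 min (Dlx5) and 2 were higher (Dlx2 and Dlx6), against 22.6% and 25.9%. The fold change was negative for 7 of 9 at 60 min against control, where it was negative for 62.4% of all genes, with a median of −0.17 over the 9 and −0.12 over all. At 15 min against control it was negative for 6 of 9, against 59.4% of all genes (median −0.14 over the 9 and −0.10 over all), and at 60 min against 15 min for 6 of 9, against 49.2%. These counts are near the shares of all genes.

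**Figure D3:**
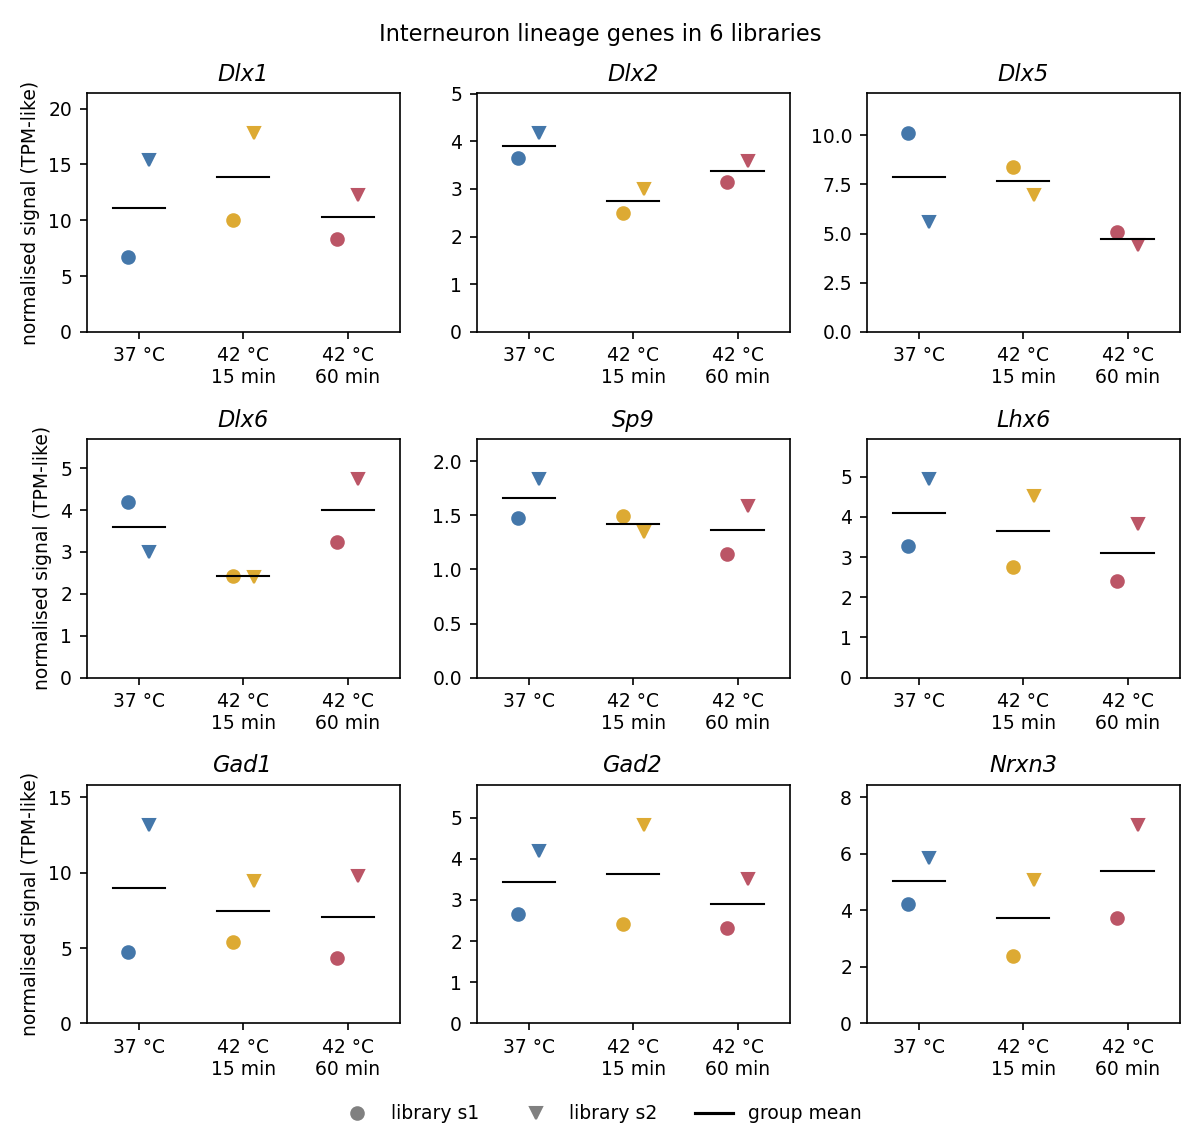
Normalised signal (TPM-like, linear axis from 0) of each of the 9 genes in the 37 °C control and after 15 and 60 min at 42 °C, with circles for library s1, triangles for library s2 and a line for the group mean (n = 2). Group means of Gad1 differ by less than its 2 libraries do in each group, while both 60 min values of Dlx5 (5.06 and 4.41) lie below the rest.

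The other factors of the lineage showed small differences beside their spread. Lhx6 had 3.27 and 4.94 in the controls, 2.76 and 4.52 at 15 min and 2.39 and 3.83 at 60 min. The 3 groups overlapped, and within each the s2 library was higher. The log2 fold change at 60 min against control was −0.32 ± 0.34 (95% interval −1.13 to 0.50, adjusted p = 0.873). Sp9 had 1.48 and 1.84 in the controls, 1.49 and 1.35 at 15 min and 1.15 and 1.59 at 60 min. Its values overlapped between the groups, and its log2 fold change at 60 min was −0.17 ± 0.31 (adjusted p = 0.914). At this level the added 1 understates a change.

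The GABA-synthesising enzymes varied more between the libraries of a group than between groups. Gad1 had 4.73 and 13.2 in the controls, 5.39 and 9.48 at 15 min and 4.37 and 9.77 at 60 min. Each group held 1 low and 1 high library. The log2 fold change was −0.14 ± 0.54 at 15 min (95% interval −1.44 to 1.16) and −0.25 ± 0.54 at 60 min (−1.55 to 1.05, adjusted p = 0.925), both against control. Gad2 had 2.67 and 4.18 in the controls, 2.41 and 4.83 at 15 min and 2.32 and 3.51 at 60 min, again with 1 low and 1 high library a group. Its log2 fold change at 60 min was −0.17 ± 0.37 (95% interval −1.07 to 0.72, adjusted p = 0.922). The ratio of Gad1 to Gad2 ran from 1.77 to 3.15 and overlapped between the 3 groups.

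Nrxn3 had 4.21 and 5.84 in the controls, 2.39 and 5.08 at 15 min and 3.73 and 7.03 at 60 min. The groups overlapped, and the s2 library was the higher one in each. The log2 fold change was −0.40 ± 0.40 at 15 min (adjusted p = 0.767) and 0.05 ± 0.40 at 60 min (95% interval −0.92 to 1.01, adjusted p = 0.983), both against control.

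A split between the libraries of a group ran through most of the 9 genes. The s2 library was above the s1 library in all 3 groups for 6 of them (Dlx1, Dlx2, Lhx6, Gad1, Gad2 and Nrxn3), where this held for 16.9% of all genes tested, and below it in all 3 for Dlx5, where this held for 20.8%. Gad1 in s2 was 2.79, 1.76 and 2.24 times its level in s1 in the control, 15 min and 60 min groups. The ratio was 2.30, 1.78 and 1.47 for Dlx1, 1.51, 1.64 and 1.60 for Lhx6, 1.57, 2.01 and 1.51 for Gad2, and 1.39, 2.12 and 1.88 for Nrxn3. For Dlx2 it was smaller, 1.14, 1.21 and 1.14, and for Dlx5 it was 0.555, 0.833 and 0.871. Dlx6 and Sp9 differed in direction between groups. What the suffixes s1 and s2 stand for is not given in the sources used here, and libraries with 1 suffix may share nothing. The pattern was noticed in the data and has no test of its own.

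**Figure D4:**
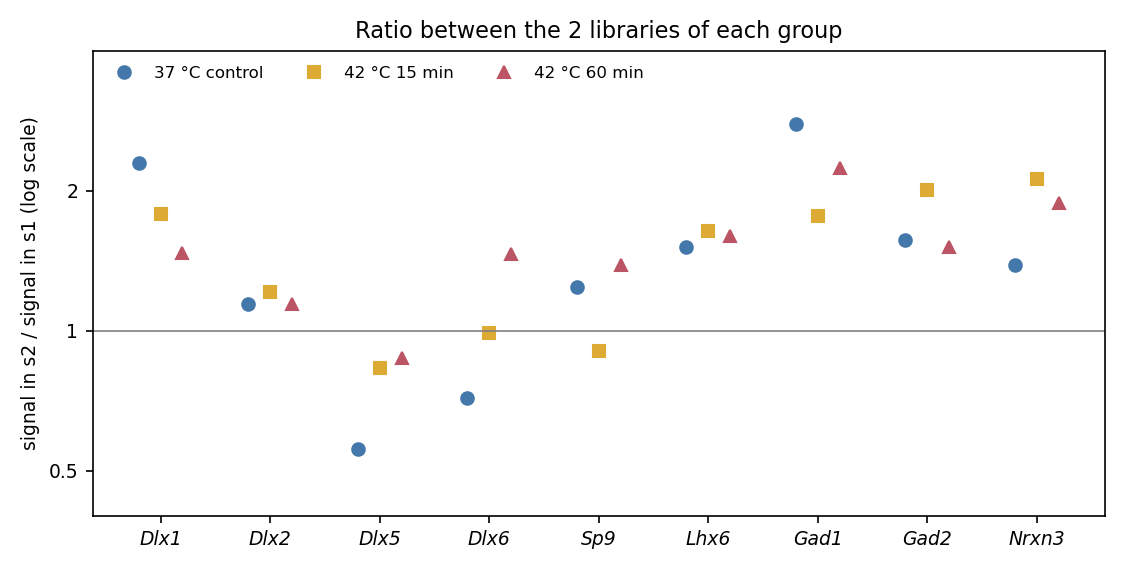
Signal in library s2 divided by signal in library s1 (log axis) for each of the 9 genes, with circles for the control, squares for 15 min and triangles for 60 min at 42 °C. Points of Dlx1, Dlx2, Lhx6, Gad1, Gad2 and Nrxn3 lie above 1 in all 3 groups and those of Dlx5 below 1.

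Genes of other lists were counted in the same way. The s2 library was the higher one in all 3 groups for 2 of 8 ventral progenitor and regional factors tested (25%), with as many lower in s2, for 10 of 22 migrating interneuron and subtype genes (45.5%) and for 5 of 7 genes of GABA synthesis, transport and breakdown (71.4%). It was so for 9 of 15 GABA receptor and inhibitory postsynapse genes tested (60%), 10 of 14 neurexin and neurexin ligand genes (71.4%), 8 of 13 pan-neuronal markers (61.5%) and 7 of 15 projection neuron genes (46.7%). For radial glia markers it was 2 of 10 (20%), with 5 of 10 (50%) lower in s2. The summed signal of the pan-neuronal markers was 1664 and 2220 in the controls, 2381 and 2389 at 15 min and 2112 and 2114 at 60 min. In the heated groups these sums barely differed between s1 and s2. A large part of them was Map2, with 810 and 628 at 15 min and 827 and 718 at 60 min. Map2 was thus lower in s2, unlike the 8 of 13 markers that were higher there in all 3 groups. Whether the share of neurons or the RNA of each neuron differed between libraries was not tested.

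The wider set of interneuron and GABA genes gave no call in any comparison. Of 8 ventral telencephalic progenitor and regional factors tested out of 15 listed, 0 passed limma's test at 60 min against control, and 6 had lower values (median log2 fold change −0.15, against −0.12 over all genes). Sp8, the paralogue of Sp9, had 17.8 and 17.3 at 60 min, against 20.1 and 27.4 in the controls (adjusted p = 0.716). At 15 min Sp8 had 15.4 and 14.7, below both controls (adjusted p = 0.747).

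Of 22 migrating interneuron and interneuron subtype genes tested out of 24 listed, 0 passed at 60 min against control, with 10 higher and 12 lower values (median −0.05). Zeb2, a zinc finger factor of migrating interneurons and other neural cells, had 225 and 261 at 60 min, against 166 and 192 in the controls (adjusted p = 0.623). Cxcr4, the chemokine receptor that guides interneuron migration, had 11.9 and 11.3 at 60 min, against 13.6 and 23.8 in the controls (adjusted p = 0.665). Sst had 17.3 and 23.4 at 60 min, against 13.7 and 23.4 in the controls, and Npy, a neuropeptide of interneurons, had 2.67 and 1.09, against 2.56 and 1.77.

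Of 7 genes of GABA synthesis, transport and breakdown tested out of 8 listed, beside Gad1 and Gad2, 0 passed and 5 had lower values at 60 min against control (median −0.23). Slc32a1 had 1.60 in both 60 min libraries, against 2.14 and 2.98 in the controls (adjusted p = 0.837). On the receiving side, 0 of 15 GABA receptor and inhibitory postsynapse genes tested passed, with 10 lower (median −0.09). Gabrb2, a GABA-A receptor subunit, had 2.12 and 2.06 at 60 min, against 4.04 and 2.29 in the controls, and Gabra4, another subunit, 2.44 and 3.40, against 2.75 and 6.01.

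Of 5 paralogues and overlapping transcripts tested out of 8 listed, 0 passed at 60 min against control and 3 had lower values (median −0.40). Nrxn2, a paralogue of Nrxn3, had 25.5 and 36.5 at 60 min, against 34.2 and 57.8 in the controls (log2 fold change −0.53 ± 0.32, adjusted p = 0.748), and its level was above that of Nrxn3 in all 6 libraries. Of the 14 neurexins and neurexin ligands tested, 0 passed, 5 had higher and 9 lower values (median −0.19).

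The projection neuron genes gave 0 calls of 15 at 60 min against control, with 12 lower (median −0.33) and 3 at an unadjusted p under 0.05. Eomes, a T-box factor of intermediate progenitors, had 45.8 and 40.6 at 60 min, against 89.9 and 102 in the controls (adjusted p = 0.201). Neurog2, a proneural factor of cortical progenitors, had 72.2 and 71.9, against 161 and 266 (adjusted p = 0.260). Neurod6 had 128 and 157, against 218 and 286 (adjusted p = 0.441), and Tbr1 had 199.97 and 169.6, against 258 and 180.1 (adjusted p = 0.880). The difference between this list and the 9 interneuron lineage genes was not tested.

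Overlapping transcripts set a limit on some of the 9 genes. Without a stated use of strand, reads from sequence that genes on opposite strands share cannot be told apart. Dlx1as, an antisense transcript over Dlx1, had 3.46 and 6.54 in the controls, 6.50 and 10.3 at 15 min and 4.31 and 7.70 at 60 min, which was 0.424 to 0.651 times Dlx1 in the same library. Like Dlx1, it was higher in the s2 library of each group. Dlx6os1, an antisense transcript over Dlx6, had 3.61 and 3.48 in the controls, 2.36 and 4.76 at 15 min and 1.60 and 2.06 at 60 min (adjusted p = 0.676 at 60 min against control). In the GENCODE transcripts, the share of stretches of 31 bases that a gene shared on either strand with transcripts of any other gene was 5.84% for Dlx1, mostly with Dlx1as (5.60%), 9.80% for Dlx6, spread over 3810 genes with no more than 2.11% in 1 of them, and 7.21% for Sp9, where Cir1 on the opposite strand held 4.83%. It was 4.01% for Gad1, nearly all with the pseudogene Gad1-ps (3.78%), 3.30% for Nrxn3, 2.26% for Gad2, 2.12% for Lhx6, 0.0708% for Dlx2 and 0% for Dlx5.

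Genes outside the list with the most similar pattern were sought by the root mean square difference between their centred log2(signal + 1) values over the 6 libraries and the mean centred values of the 9 genes. Among 11803 other named genes whose mean reached 5, the nearest were Uty, a gene of the Y chromosome (0.0355 on the log2 scale), Xkr4 (0.0358), Exd2 (0.0517), Hcfc2 (0.0566) and Gm49602 (0.059). Uty had 12.4 and 14.8 in the controls, 10.5 and 13.5 at 15 min and 9.88 and 13.7 at 60 min, with the s2 library the higher one in each group. None of these 5 genes belongs to the lists above. The mean centred values ran only from −0.28 in 60 min s1 to 0.27 in control s2. A gene near this mean is not near each of the 9 genes. The s2 library was higher in each group for the mean and for 6 of the 9. It was lower in each group for Dlx5, while Dlx6 and Sp9 differed in direction between groups.

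Over the whole series, control s1 stood apart by having 29309 genes with a signal of 1 or more, while the remaining 5 libraries had between 19035 and 21796. Among the 9 genes Dlx5 was the only one highest there (11.1%, against 36.1% of all genes tested). Microglial and macrophage markers summed to 14.8 to 25.8 a library, endothelial and mural markers to 16.9 to 27.9, and oligodendrocyte lineage markers to 11.7 to 19.5. Astrocyte markers summed to 77.2 to 125, most of it Gja1 and Slc1a2, which radial glia also express, fibroblast and meningeal markers to 8.83 to 18.0 and erythroid markers to 258 to 509. Radial glia markers summed to 2198 and 2554 in the controls, 3201 and 2807 at 15 min and 3063 and 2654 at 60 min. Their part in the values above was not tested.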

How the data were processed

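Total RNA was measured in 6 libraries, in 3 groups of 2. Per the labels' protocols the kit was Zymo-Seq RiboFree, with single-end reads of 100 bp. The submitters' processing notes name kallisto, sleuth and GRCm39. For their versions, the annotation, any strand setting and how transcripts became genes, the sources used here give nothing. The authors deposited a normalised signal per gene, called TPM-like here because its column totals differ between libraries (892768 in control s1), which plain TPM would not. It is not a count, and the depth is unknown.

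Columns were assigned to groups by name, with s1 and s2 as names only. Ensembl IDs were paired with symbols through a GENCODE table (52028 of 55538 named). limma 3.58.1 in R 4.3.3 was fitted with a mean-variance trend to log2(signal + 1) of all 6 libraries, over the 21954 genes whose mean reached 1, with 3 residual degrees of freedom. Tests were two-sided with Benjamini-Hochberg adjustment at 0.05. The fit was also run on simulated data, with independent genes and no library set apart as control s1 was. Its outcome is not given here, so it says nothing on how the fit does with these libraries. The 9 genes and all lists were chosen with earlier results of these data known. Of each list the 2 genes with the smallest unadjusted p at 60 min against control were named, besides 16 fixed ones; some genes under this rule are not reported here. Ratios of members within a library were added after values were seen. The alternatives were a pseudocount of 0.1 or 5, a filter at a mean of 5 or none, median-of-ratios scaling, a replicate block, no trend, only the 4 libraries compared, and each library left out. Sequences came from RefSeq (GRCm38.p6).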

Additional observations from a re-analysis of the deposited data

How the results depend on the processing

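None of the 9 genes passed an adjusted p of 0.05 in any alternative. Of 360 recomputed fold changes 325 kept their direction and 35 turned, and the smallest adjusted p was 0.114 (limma, Dlx5 at 60 min against control, without control s2). By limma, Dlx5 alone reached an unadjusted p under 0.05: at 60 min against 15 min with median-of-ratios scaling (adjusted p = 0.970), with only the 4 libraries compared (adjusted p = 0.306), without control s1 (adjusted p = 0.302), without control s2 (adjusted p = 0.289) and with the replicate block, and at 60 min against control without control s2. A filter at a mean of 5 left 3 of the 9 to test. With 2 libraries a group and 3 residual degrees of freedom, the intervals limit what can be seen, and the depth is unknown.

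With median-of-ratios scaling the median fold change of all genes moved to 0.05 at 60 min and 0.19 at 15 min against control, from −0.12 and −0.10. Values that turned with it were Dlx1 at 60 min against control (0.14) and, at 15 min against control, Sp9 (0.056), Lhx6 (0.10) and Gad1 (0.13). With a pseudocount of 5, Dlx5 at 15 min against control was −0.0012.

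Over all genes, calls at 60 min against control (9) were 5 with a pseudocount of 5, 5 with no filter, 28 with median-of-ratios scaling, 2 with only the 4 libraries compared, and 0 to 146 with each library left out (146 without control s2, 48 without control s1). Calls at 15 min against control (0, with 868 genes at an unadjusted p under 0.05) were 7 with median-of-ratios scaling and 0 to 216 with a library left out (216 without control s2, 41 without control s1). Calls at 60 min against 15 min (4) were 34 with median-of-ratios scaling, 10 with no trend, 0 with only the 4 libraries compared (3385 genes at an unadjusted p under 0.05) and 0 to 2 with a library left out. The cause was not tested. A lone library was assumed to vary like the other groups.

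With each library left out in turn, some fold changes turned, and their lowest and highest values are given on the log2 scale. At 60 min against control this held for Dlx1 (−0.56 to 0.53), Dlx6 (−0.10 to 0.33), Gad1 (−0.90 to 0.41), Gad2 (−0.42 to 0.075), Nrxn3 (−0.34 to 0.43). At 15 min against control this held for Dlx1 (−0.19 to 0.90), Dlx5 (−0.36 to 0.39), Gad1 (−0.80 to 0.51), Gad2 (−0.36 to 0.42), Lhx6 (−0.42 to 0.13), Nrxn3 (−0.82 to 0.025). At 60 min against 15 min this held for Dlx1 (−0.76 to 0.016), Gad1 (−0.61 to 0.40), Gad2 (−0.59 to 0.18), Lhx6 (−0.45 to 0.11), Sp9 (−0.17 to 0.10).

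With the suffix as a replicate block the calls over all genes were 8 at 60 min against control, 0 at 15 min against control (1878 at an unadjusted p under 0.05) and 4 at 60 min against 15 min, and 0 of the 9 genes passed; Dlx5 at 60 min against 15 min had an unadjusted p of 0.0495 (adjusted p = 0.553). The differences s2 minus s1 correlated across genes with r = 0.0786 between control and 15 min, 0.102 between control and 60 min and 0.224 between the heated groups, genes not being independent replicates. The suffixes were not taken to pair the libraries.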
